A study of Bos taurus with 8 samples.

Results

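Cells read bone morphogenetic protein (BMP) signals through surface receptors, and the genes described here encode those receptors, the SMAD proteins that restrain the signal and the ID proteins that the signal induces. They are *BMPR1A*, *BMPR1B*, *BMPR2*, *ACVR1*, *SMAD6*, *SMAD7*, *ID1*, *ID2*, *ID3* and *ID4*, 10 genes chosen by name for their roles. Of these, 9 were found among the 24596 genes counted, and *ID4* was not analysed here because no row carried that name. All 9 had enough counts to be tested, as did 12857 genes in all. Cartilage came from the knee joints of wild-type calves aged 1 to 2 weeks. Superficial zone chondrocytes (SZCs) were released from the outermost slice of each cartilage core and deep zone chondrocytes (DZCs) from the lowest slice. Both were plated in DMEM/F12 medium with fetal bovine serum and the RNA of 2 libraries a zone was sequenced 3 days later. The study's methods call the 2 libraries of a zone biological duplicates, and whether they came from different animals is not given in the sources used here. Slices of a joint were combined before the cells were released, and serum culture was shared by both zones, so the levels are those of plated cells and not of intact cartilage.

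BMPs and the related growth and differentiation factors (GDFs) bind a pair of type I and a pair of type II receptor chains, and the type II chain then phosphorylates the type I chain. The activated type I receptor phosphorylates SMAD1, SMAD5 and SMAD9, which enter the nucleus with SMAD4 and switch on target genes. *SMAD6*, *SMAD7* and the *ID* genes are among these targets, so their RNA is widely used as a readout of the pathway. In cartilage, BMP signalling supports the chondrocyte state and drives the maturation of growth plate chondrocytes, while GDF ligands take part in forming joints.

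Library totals lay between 19918970 and 21890549 counts, and levels are given as counts-per-million (CPM) after scaling by the trimmed mean of *M* values (TMM). A level of 3 counts, the smallest taken as shown, corresponded to between 0.129 and 0.187 CPM. The chondrocyte collagen gene *COL2A1* was abundant in every library, and all 6 superficial zone markers were called higher in SZCs. The study treats *PRG4*, which encodes lubricin, and *VIT*, *EPHA3*, *THBS4* and *WIF1* as markers of that zone. It names those after *PRG4* with their differences in these same samples, and it picked *CREB5* on these samples too. The directions of these genes other than *PRG4* are thus not independent evidence. The DZC libraries differed from each other, each standing apart in its own way. DZC replicate 1 held 333028 CPM of *COL2A1*, against 55486 to 118866 in the other libraries, and its TMM factor was 0.735, against 1.08 to 1.14. The 6 proliferation markers, *MKI67* among them, summed to 12.6 CPM in DZC replicate 1 and to between 157 and 281 CPM in the other 3 libraries. The 7 fibroblast and synovial markers summed to 4404 CPM there and to between 13978 and 25384 CPM elsewhere. Most of each sum was *COL1A1*, *COL1A2* and *COL3A1*. Of the same list *PDPN* went the other way, at 1102 CPM in DZC replicate 1 and 452 to 762 CPM elsewhere. DZC replicate 2 stood apart in the 8 hypertrophic and bone markers, which summed to 269.7 CPM there, to 19.1 CPM in DZC replicate 1 and to 103.6 and 110.3 CPM in SZCs, where nearly all of the sum was *SPP1*. The matrix protease gene *MMP13* had 468 counts in DZC replicate 2 and 0 in each other library, and the bone matrix gene *IBSP* had 268 counts there and 0 to 2 elsewhere. The 7 endothelial markers summed to only 3.92 to 12.9 CPM over the 4 libraries and the 7 immune markers to 6.47 to 28.3 CPM. The endothelial gene *CDH5* had 0 to 10 counts and the pan-leukocyte gene *PTPRC* 0 to 14 counts per library. Others were higher in SZCs without overlap, namely the immune marker *CD14*, at 264 and 374 counts against 63 and 147 in DZCs, and the endothelial marker *KDR*, at 35 and 83 against 0 and 15. The endothelial marker *VWF* lay the other way, and the other tested genes of both lists overlapped. Of both lists 0 were called, with median log2 fold changes of 0.83 (endothelial) and 1.18 (immune). These are bulk samples, in which fewer cells of a type and less RNA per cell cannot be told apart.

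None of the 9 genes was called different between SZCs and DZCs. By edgeR's exact test with Benjamini–Hochberg adjustment (FDR), 0 of 9 passed a threshold of 0.05, against 2.93% of all genes tested. At an unadjusted p-value below 0.05 the count was also 0 of 9, against 9.09% of all genes. The quasi-likelihood test of edgeR called 0 of the 9 and DESeq2 called 0, with 0 at an unadjusted p-value below 0.05 in each. With the replicate number as a blocking term, edgeR's quasi-likelihood test also called 0, and 1 of the 9, *SMAD7*, fell below 0.05 before adjustment, at 0.0304, with an adjusted p of 0.314 over all genes. Log2 fold changes of SZCs over DZCs ran from -0.38 for *BMPR1B* to 0.84 for *SMAD7*, with a median of 0.05 over the 9 genes and of -0.04 over all genes tested. The smallest absolute log2 fold change that the exact test called for any gene was 1.07, which is larger than any of the 9 values.

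**Figure D1:**
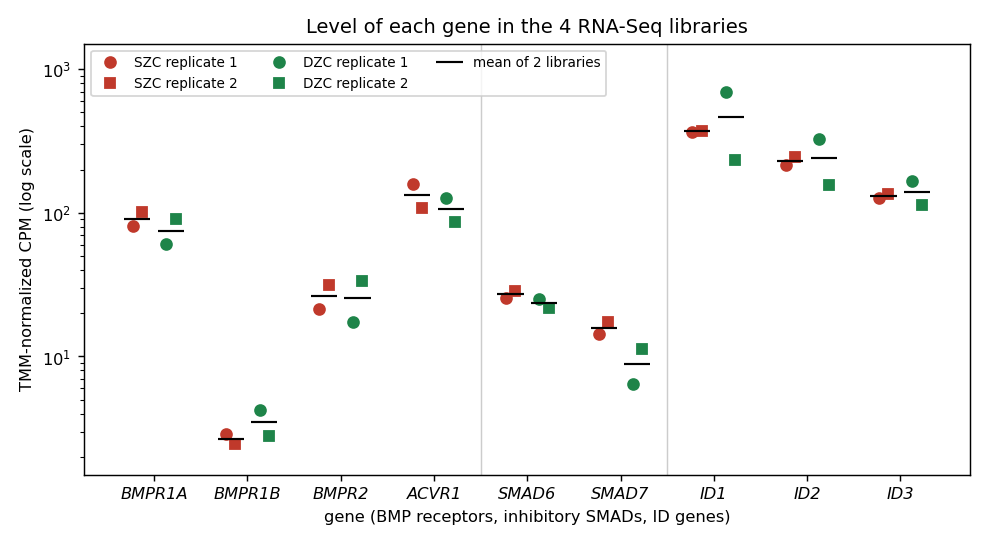
Level of each of the 9 genes in the 4 RNA-Seq libraries, as TMM-normalized CPM on a log axis, with SZC libraries in red, DZC libraries in green, circles for replicate 1, squares for replicate 2 and bars for the mean of each zone. The SZC and DZC libraries overlap for 7 of the 9 genes, and those of *SMAD6* and *SMAD7* do not, whereas with library totals alone those of *ACVR1* and *ID3* would not overlap either and 5 of the 9 would; CPM is not divided by transcript length, so heights of different genes are not comparable.

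*BMPR1A* (ENSBTAG00000000231) encodes the type I receptor ALK3, which is broadly expressed and binds BMP2 and BMP4. It was at 80.5 and 100.8 CPM in SZC replicates 1 and 2 and at 60.6 and 90.1 CPM in DZC replicates 1 and 2. The zones overlapped, since DZC replicate 2 lay above SZC replicate 1. The difference, as a log2 fold change, was 0.27 (SE 0.38; 95% interval -0.49 to 1.02), with an FDR of 0.998 by edgeR's exact test. Without DZC replicate 1 it was 0.01, and without DZC replicate 2 it was 0.60.

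*BMPR1B* (ENSBTAG00000002081) encodes ALK6, the type I receptor that GDF5 prefers and that is known for its part in digit and joint cartilage. Its raw counts were 64 and 57 in SZCs against 68 and 62 in DZCs, so it was detected in all 4 at a similar raw count. After scaling, these counts were 2.91 and 2.45 CPM in SZCs and 4.23 and 2.78 CPM in DZCs. With TMM scaling DZC replicate 1 was the highest library and the other 3 lay close together. With library totals alone the levels were 3.21 and 2.79 CPM in SZCs and 3.11 and 3.01 CPM in DZCs, with SZC replicate 1 highest. SZCs stood against DZCs at a log2 fold change of -0.38 (SE 0.60; 95% interval -1.55 to 0.79), and edgeR's exact test gave FDR = 1. That interval was the widest of the 9, and the value was -0.05 without DZC replicate 1 and -0.64 without DZC replicate 2. Under scaling by library totals alone the log2 fold change was -0.03, beside a median over all genes that had itself moved by 0.30.

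*ACVR1* (ENSBTAG00000011909) encodes ALK2, the type I receptor whose activating mutations cause the heterotopic bone of fibrodysplasia ossificans progressiva. Its level was 157.7 and 108.3 CPM in SZCs and 127.5 and 86.3 CPM in DZCs. In both zones replicate 1 was the higher library, and DZC replicate 1 lay between the SZC libraries. The log2 fold change was 0.32 (SE 0.41; 95% interval -0.48 to 1.11), and edgeR's exact test gave FDR = 0.994. The value was 0.63 without DZC replicate 1, 0.56 without SZC replicate 2, 0.08 without DZC replicate 2 and 0.02 without SZC replicate 1.

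*BMPR2* (ENSBTAG00000006420) encodes the type II receptor dedicated to BMP ligands. It was at 21.5 and 31.4 CPM in SZCs and at 17.3 and 33.7 CPM in DZCs, so both the lowest and the highest library came from the deep zone. Replicate 2 was the higher library in each zone, by 1.46-fold in SZCs and 1.95-fold in DZCs. Against that spread, the mean levels were 26.5 ± 7.0 CPM (SD, n = 2) for SZCs, as against 25.5 ± 11.6 CPM (SD, n = 2) for DZCs. The fitted log2 fold change was 0.05 (SE 0.47; 95% interval -0.88 to 0.98), and edgeR's exact test gave FDR = 1. It turned to -0.35 without DZC replicate 1 and to -0.25 without SZC replicate 2, and was 0.64 without DZC replicate 2. Under scaling by library totals alone the log2 fold changes were 0.27 for *BMPR2*, 0.52 for *BMPR1A* and 0.67 for *ACVR1*. The median over all genes had moved by 0.30 in that fit.

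Ratios of receptor genes within a library do not depend on how libraries are scaled, although their absolute size depends on gene lengths, which were not used here. The log2 ratio of *BMPR1B* to *BMPR1A* was -4.79 and -5.36 in SZCs, against -3.84 and -5.02 in DZCs. The zones overlapped, and the difference of the means was -0.65 (exact two-sided permutation test, p = 0.667; the smallest p that 2 libraries against 2 can give is 0.333). It was -0.06 without DZC replicate 1 and -1.24 without DZC replicate 2. The log2 ratio of *ACVR1* to *BMPR1A* was 0.97 and 0.10 in SZCs and 1.07 and -0.06 in DZCs. It differed by about as much between replicates in either zone, being higher in replicate 1, and its zone means differed by 0.03 (exact two-sided permutation test, p = 1), or from -0.54 to 0.60 with 1 library left out at a time.

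*SMAD6* and *SMAD7* encode the inhibitory SMADs, which bind activated type I receptors and bring ubiquitin ligases to them. *SMAD6* acts chiefly on BMP receptors, whereas *SMAD7* restrains both BMP and TGF-β receptors and is induced by both pathways. With TMM scaling these were the only 2 of the 9 genes whose libraries did not overlap between zones, in both cases with SZCs above DZCs. Among all genes tested, 41.5% did not overlap in either direction and 21.0% had SZCs above. The 2 of 9 thus lay below the first share and near the second. Under scaling by library totals alone 4 of 9 did not overlap, *ACVR1* and *ID3* being added, all with SZCs above, beside 43.6% of all genes that did not overlap in either direction and 36.1% with SZCs above.

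*SMAD7* (ENSBTAG00000012441) had the largest absolute log2 fold change of the 9 genes. Its level was 14.4 and 17.3 CPM in SZCs and 6.47 and 11.2 CPM in DZCs. Both SZC libraries were above both DZC libraries, and DZC replicate 1 was the lowest. Means were 15.9 ± 2.1 CPM (SD, n = 2) and 8.83 ± 3.35 CPM (SD, n = 2), a log2 fold change of 0.84 (SE 0.47; 95% interval -0.09 to 1.77), or 1.79-fold (95% interval 0.939-fold to 3.41-fold). The FDR was 0.678 and the unadjusted p-value 0.0801 by edgeR's exact test. The direction was kept with each library left out, at log2 fold changes from 0.50 without DZC replicate 1 to 1.32 without DZC replicate 2. In the latter fit the FDR was 0.00645 by edgeR's exact test, with the single DZC library assumed to vary like the SZC pair, whose counts differed less from each other than those of the DZC pair, and 2768 genes were then called.

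*SMAD6* (ENSBTAG00000000625) differed less. It was at 25.4 and 28.8 CPM in SZCs and at 25.1 and 21.9 CPM in DZCs, so SZC replicate 1 and DZC replicate 1 were nearly level. The log2 fold change was 0.21 (SE 0.35; 95% interval -0.49 to 0.90), and edgeR's exact test gave FDR = 1. With 1 library left out at a time the values ran from 0.11 to 0.31. Under scaling by library totals alone it was 0.53, beside a median over all genes that had itself moved by 0.30.

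The log2 ratio of *SMAD6* to *SMAD7* was 0.82 and 0.73 in SZCs, against 1.96 and 0.96 in DZCs. Each DZC library thus held relatively more *SMAD6* than either SZC library, and the difference of the zone means was -0.69. By an exact two-sided permutation test p was 0.333, which 2 libraries against 2 cannot go below. That difference was -0.19 without DZC replicate 1 and -1.18 without DZC replicate 2.

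The *ID* genes encode helix-loop-helix proteins without a DNA-binding region, which hold E proteins and other basic helix-loop-helix factors off DNA. *ID1* (ENSBTAG00000016169) was at 364 and 374 CPM in SZC replicates 1 and 2 and at 692 and 235 CPM in DZC replicates 1 and 2. The SZC libraries agreed closely, and one DZC library lay above them and the other below. The ratio between the DZC libraries was 2.95-fold, and 5.61% of all genes tested differed by more between that pair on the log2(CPM + 1) scale. The ratio between the SZC libraries was 1.03-fold, and 90.7% of all genes differed by more there. Means were 369 ± 7 CPM (SD, n = 2) for SZCs, as against 464 ± 323 CPM (SD, n = 2) for DZCs, so the spread in DZCs exceeded the difference between zones. For *ID1* the log2 fold change was -0.33 (SE 0.57; 95% interval -1.44 to 0.79), and edgeR's exact test gave FDR = 1. It was 0.66 without DZC replicate 1 and -0.88 without DZC replicate 2, where the FDR was 0.0212 by edgeR's exact test under the same assumption as for *SMAD7*.

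*ID2* (ENSBTAG00000021187) was at 214 and 245 CPM in SZCs and at 328 and 156 CPM in DZCs. As for *ID1*, the DZC libraries lay on either side of the SZC pair, 2.11-fold apart. The log2 fold change was -0.08 (SE 0.47; 95% interval -0.997 to 0.84), and edgeR's exact test gave FDR = 1. It moved to 0.56 without DZC replicate 1 and to -0.49 without DZC replicate 2. *ID3* (ENSBTAG00000030425) was at 127.8 and 134.9 CPM in SZCs and at 165.4 and 114.2 CPM in DZCs, again with DZC replicate 1 highest and DZC replicate 2 lowest. Its log2 fold change was -0.09 (SE 0.37; 95% interval -0.82 to 0.64), and edgeR's exact test gave FDR = 1. The value without DZC replicate 1 was 0.20, and without DZC replicate 2 it was -0.31. The upper end of the interval is 1.56-fold higher in SZCs and the lower end 1.77-fold higher in DZCs, and these are the narrowest limits among the *ID* genes.

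The order of the libraries was the same for *ID1*, *ID2* and *ID3*, from DZC replicate 1 through SZC replicate 2 and SZC replicate 1 to DZC replicate 2, and 3.46% of all genes tested had that order. This likeness was noticed after the values were seen, and under scaling by library totals alone it held for *ID1* but not for *ID2* or *ID3*. With that scaling *ID1* was at 509 CPM in DZC replicate 1 and at 254 CPM in DZC replicate 2, *ID2* was highest in SZC replicate 2, and *ID3* was at 121.5 and 123.7 CPM in the DZC libraries. The log2 fold changes of all 3 then changed sign, to 0.12, 0.33 and 0.27, in a fit whose median over all genes had moved by 0.30. Relative to that median they were -0.14, 0.07 and 0.01. In DZC replicate 1, where *ID1* was highest, the proliferation markers were lowest (12.6 CPM in sum), and in DZC replicate 2, where *ID1* was lowest, they were highest (281 CPM). The hypertrophic and bone markers differed in the same direction between these libraries, at 19.1 CPM in DZC replicate 1 and 269.7 CPM in DZC replicate 2. The part of either marker list in the *ID* levels was not tested.

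**Figure D2:**
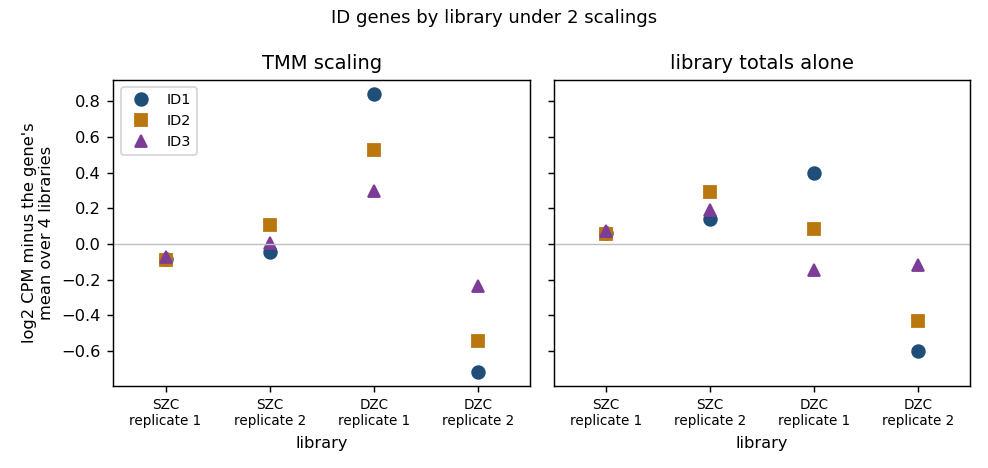
Log2 CPM of *ID1*, *ID2* and *ID3* in each library, less the mean of that gene over the 4 libraries, with TMM scaling on the left and library totals alone on the right. With TMM all 3 genes are highest in DZC replicate 1 and lowest in DZC replicate 2. With library totals this holds for *ID1* only. The direction of all 3 between zones then flips, beside a median over all genes that moves by 0.30.

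Within libraries, the log2 ratio of *ID1* to *ID3* was 1.51 and 1.47 in SZCs, against 2.07 and 1.04 in DZCs, so DZC replicate 1 held the most *ID1* relative to *ID3* and DZC replicate 2 the least. The ratio of *ID1* to *ID2* on the same scale was 0.77 and 0.61 in SZCs and 1.08 and 0.59 in DZCs. Neither ratio separated the zones, with differences of the means of -0.06 and -0.14 (exact two-sided permutation test, p = 1 for each), and both were above 0 without DZC replicate 1, at 0.45 and 0.10. In all, 5 such ratios were compared between zones, and none can reach a p below 0.333 in this design.

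The intervals state how large a difference these counts still allow. For 4 of the 9 genes (*BMPR2*, *SMAD6*, *ID2* and *ID3*) the 95% interval of the log2 fold change lay between -1 and 1, that is within a 2-fold change either way, and 25.3% of all genes tested had an interval that narrow. For 8 of the 9 it lay within a 3-fold change either way, and *SMAD7* was the exception. The median standard error was 0.47 for the 9 genes and 0.46 for all genes. A missed threshold does not show that the zones were alike: a 2-fold difference in *ACVR1*, *BMPR1A* or *SMAD7* toward SZCs, or in *BMPR1B* or *ID1* toward DZCs, lay inside the interval.

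**Figure D3:**
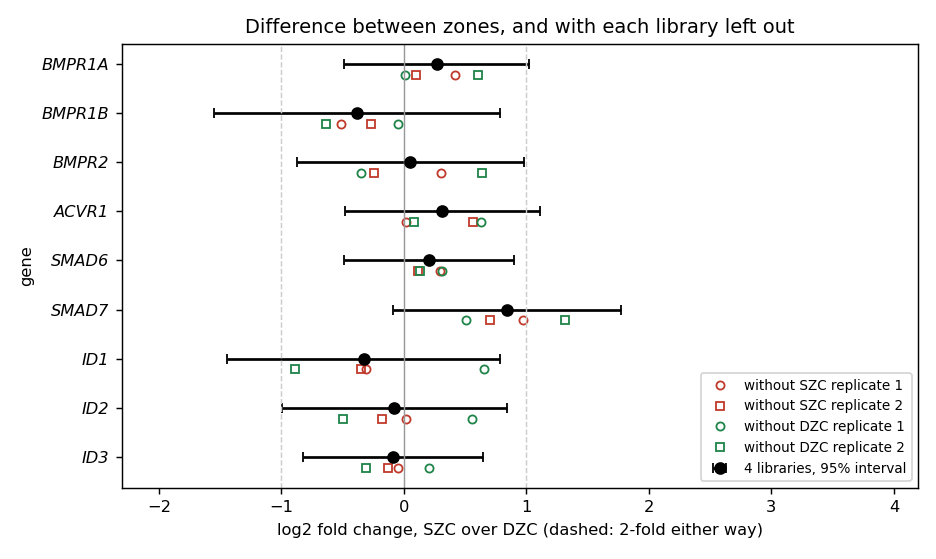
Log2 fold change of SZCs over DZCs for each of the 9 genes with its 95% interval (black), and the value with each library left out in turn (open symbols, red where an SZC library and green where a DZC library was left out). Every black interval crosses 0, and leaving out a DZC library moves *ID1* from -0.88 to 0.66 and *BMPR2* from -0.35 to 0.64, whereas *SMAD7* stays above 0 throughout. With library totals alone the black points of *ID1*, *ID2* and *ID3* would lie above 0, beside a median over all genes that moves by 0.30.

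Since none of the 9 genes was called, the pattern of *SMAD7*, as the largest of them, was compared with that of every other named gene tested. Over the 4 libraries, the closest profiles of log2(CPM + 1), each centred on its mean, were those of *STOM* (Euclidean distance 0.03), *ZNF503* (0.04) and *PXK* (0.05). *STOM*, for example, was at 24.1 and 28.4 CPM in SZCs and 11.3 and 18.9 CPM in DZCs. None of the 3 was called either (FDR 0.615, 0.687 and 0.595 by edgeR's exact test). With 4 libraries many genes have like profiles, and this is a description.

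The other genes of the pathway were followed through lists of 84 genes, of which 74 had a row and 67 were tested. Of these 67, 9 were called by edgeR's exact test, 8 higher in SZCs and 1 higher in DZCs. Over all genes tested, 2.23% were called higher in SZCs and 0.700% higher in DZCs; these shares come from 287 and 90 calls, which became 288 and 44 under scaling by library totals alone. The calls fell among co-receptors, ligands, secreted antagonists and a single target gene, and 0 fell among the type I and II receptors, the SMADs that carry the signal, its intracellular regulators or the E proteins. Whether the lists differ from each other in this respect was not tested. All 9 calls were lost under edgeR's quasi-likelihood test, which called 0 of all genes tested (1126 at an unadjusted p-value below 0.05), and 8 of the 9 were lost without SZC replicate 1, *GDF6* being the exception. DESeq2 called 12 pathway genes, with all 9 among them and *CCN2*, *RUNX2* and *TGFBI* added. Under the replicate block edgeR's quasi-likelihood test called 11, which were 8 of the 9 and *CHRDL2*, *NEDD4L* and *RUNX2*. Among fibroblast and synovial markers, named here after their values were seen, the median log2 fold change of the 7 was 0.95, and 1 of 7 was called, *DCN*, which encodes the matrix proteoglycan decorin and was 4.43-fold higher in SZCs (edgeR exact test, FDR = 0.00804). *COL1A2* and *COL3A1* were above DZCs in both SZC libraries and *PDPN* below, while *COL1A1*, *LUM* and *THY1* overlapped between zones. None of these genes was called. The part of the markers of this list in the pathway calls was not tested.

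Of the 3 remaining BMP-binding receptors tested, 0 were called, with a median log2 fold change of -0.00. *ACVRL1*, which encodes the endothelial type I receptor ALK1, had a log2 fold change of 0.07 (95% interval -1.20 to 1.34) at 40 to 98 counts per library. *ACVR2A*, a type II receptor shared with activins, was at 12.1 and 16.4 CPM in SZCs and 12.9 and 16.2 CPM in DZCs, a log2 fold change of -0.03 (95% interval -0.86 to 0.80). Among SMADs that carry the BMP signal, 0 of 3 tested were called, and the median was 0.16. *SMAD9* had a log2 fold change of 0.49 (edgeR exact test, FDR = 0.846) and *SMAD1* one of -0.22 (same edgeR test, FDR = 1). No row carried the name *SMAD5*, which was not analysed here.

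Among co-receptors and the decoy receptor, 2 of 6 tested were called, both higher in SZCs, and the median log2 fold change was 0.65. *BAMBI*, a receptor-like protein without a kinase that dampens BMP and TGF-β signals and is itself a BMP target, was at 13.1 and 12.5 CPM in SZCs and at 2.80 and 4.57 CPM in DZCs. Its libraries did not overlap, and the log2 fold change was 1.79 (SE 0.50; edgeR exact test, FDR = 0.0224), 3.46-fold. That call was kept by DESeq2 (FDR 0.0121) and lost with library totals alone (log2 fold change 2.04; edgeR exact test, FDR = 0.0784), with common then gene-wise dispersion (FDR = 0.0538, edgeR exact test), with a replicate block (FDR = 0.0518, edgeR quasi-likelihood test), and without SZC replicate 1 (FDR = 1) or SZC replicate 2 (FDR = 0.782, edgeR exact test for both). *TGFBR3*, or betaglycan, which presents TGF-β2 and also binds BMPs, was at 43.4 and 33.8 CPM in SZCs and at 2.36 and 10.9 CPM in DZCs. Its log2 fold change was 2.53 (SE 0.70; edgeR exact test, FDR = 0.0289), 5.78-fold. That value was 1.82 without DZC replicate 1 and 4.05 without DZC replicate 2, and with library totals alone it was 2.67 (edgeR exact test, FDR = 0.137).

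Of 17 intracellular regulators tested, which are ubiquitin ligases, phosphatases, co-repressors and kinases, 0 were called and the median log2 fold change was 0.06. The largest differences were those of the ubiquitin ligases *NEDD4L*, with a log2 fold change of -1.79 (edgeR exact test, FDR = 0.162), and *NEDD4*, with one of -0.91 (same edgeR test, FDR = 0.462). *NEDD4L* was at 4.86 and 8.66 CPM in SZCs and at 11.7 and 34.9 CPM in DZCs, with no overlap. Of the 3 E proteins, the partners that ID proteins bind, 0 were called. *TCF4* had a log2 fold change of 0.59 (edgeR exact test, FDR = 0.922) and *TCF3* one of 0.40 (same edgeR test, FDR = 0.914), and the median was 0.40.

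Among 8 other BMP target genes tested, 1 was called and the median log2 fold change was -0.09. It was *DLX3*, a homeobox factor that the study lists among transcriptional regulators with higher RNA in SZCs of these samples, so its direction is not independent evidence. *DLX3* was at 14.6 and 13.0 CPM in SZCs and at 1.24 and 3.23 CPM in DZCs, a log2 fold change of 2.61 (SE 0.60, edgeR exact test, FDR = 0.00287). That value was 2.10 without DZC replicate 1 and 3.49 without DZC replicate 2. It was 2.53 without SZC replicate 1 and 2.69 without SZC replicate 2. Of the others, *RUNX2*, which drives chondrocyte maturation and bone formation, had a log2 fold change of -2.23 (edgeR exact test, FDR = 0.0608) and was called by DESeq2 and under the replicate block, and it is named here after its values were seen. *RUNX2* had 35 and 85 counts in SZCs and 120 and 383 in DZCs, highest in DZC replicate 2, the library that also carried the bone markers *SP7* (140 counts, against 1 in DZC replicate 1), *IBSP* and *MMP13*. Their part in this difference was not tested.

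Ligands and antagonists held most of the calls. Of 8 BMP and GDF ligands tested, 3 were called, all higher in SZCs, and the median log2 fold change was 1.30. *GDF5* and *GDF6*, which are known for joint formation, were 4.23-fold and 28.8-fold higher, the latter against 1 and 16 counts in the DZC libraries. The size for *GDF6* rests on those few counts, and its log2 fold change of 4.85 became 4.04 without DZC replicate 1 and 7.46 without DZC replicate 2, where the 1 count left is under the level of 3 taken as shown. *GDF2*, which encodes BMP9, had 42 and 12 counts in SZCs against 0 and 0 in DZCs, and was at least 15.3-fold higher in SZCs against a floor of 3 counts over both DZC libraries. From SZC replicate 2 alone, with its 12 counts, the bound was 6.62-fold against the same floor. Of 12 secreted antagonists tested, 2 were called higher in SZCs and 1 higher in DZCs, and the median was -0.20. *BMPER*, a BMP-binding modulator, was 5.44-fold higher in SZCs and *TWSG1*, which works with chordin, was 3.93-fold higher. *VWC2*, a chordin-like protein, had 2 and 2 counts in SZCs against 48 and 114 in DZCs (edgeR exact test, FDR = 1.80e-06). Its SZC counts are under the level of 3 taken as shown, so the size of its log2 fold change, -5.43, is uncertain. The value was -5.46 without SZC replicate 1 and -5.39 without SZC replicate 2.

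**Figure D4:**
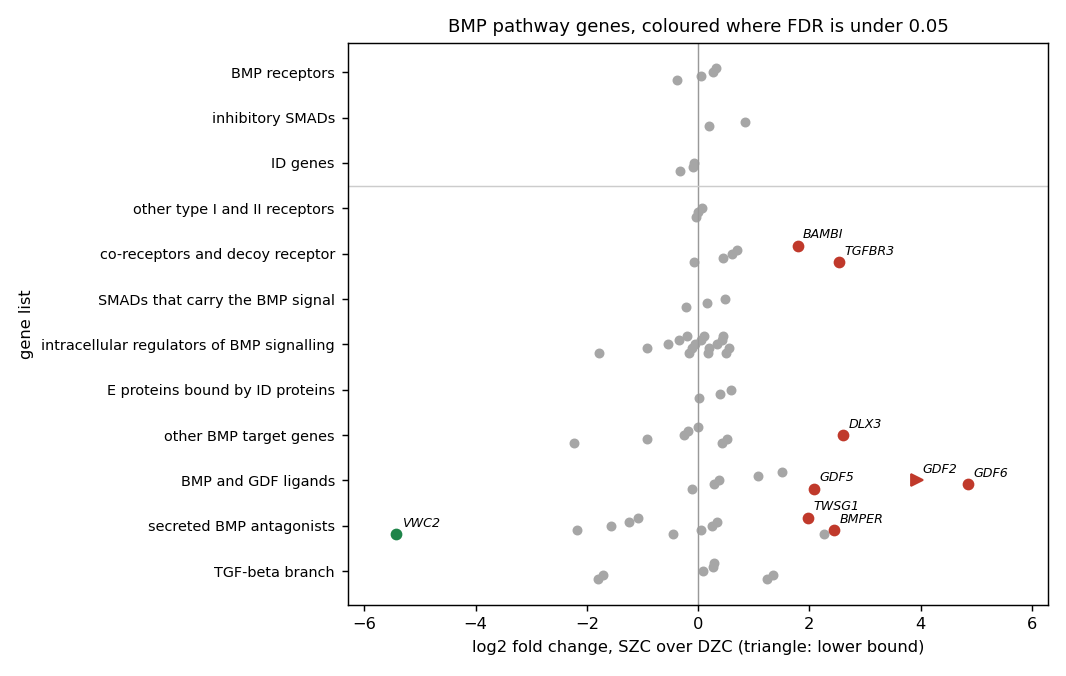
Log2 fold change of SZCs over DZCs for every tested gene of the pathway, by list, with genes that passed edgeR's exact test at FDR 0.05 coloured and named (red, higher in SZCs; green, higher in DZCs) and the triangle at a lower bound. The 9 receptor, inhibitory SMAD and *ID* genes in the top 3 lines are grey and lie between -0.38 and 0.84, and the 9 coloured genes lie in the lists of co-receptors, targets, ligands and antagonists. Library totals alone would move *BAMBI* and *TGFBR3* to grey and the 3 *ID* genes above 0, beside a median over all genes that moves by 0.30.

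The TGF-β branch, which shares *SMAD4* and *SMAD7* with the BMP branch, had 7 genes tested and 0 called, with a median log2 fold change of 0.27. *CCN2*, which TGF-β induces in many cells, was at 950.2 and 1247 CPM in SZCs and at 2015 and 5160 CPM in DZCs. Its libraries did not overlap, and the log2 fold change was -1.71 (edgeR exact test, FDR = 0.0847). *TGFBI*, also TGF-β-induced, lay the other way, at 159.4 and 141.6 CPM in SZCs and 41.1 and 77.4 CPM in DZCs, a log2 fold change of 1.34 (edgeR exact test, FDR = 0.0701). The type I receptor gene *TGFBR1* had a log2 fold change of 1.23 (edgeR exact test, FDR = 0.439). *TGFBI* and *TGFBR1* are named here after their values were seen.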

How the data were processed

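RNA-Seq reads were made with a low-input cDNA kit, aligned by the authors with STAR 2.5.2b to the bovine UMD 3.1 genome with Ensembl genes, and deposited as raw counts per gene for 4 libraries, without use of strand. Library totals, from 19918970 to 21890549, were close, and intervals cover count and replicate spread only as modelled. Genes were filtered with filterByExpr and tested with the exact test of edgeR 4.0.16 (R 4.3.3) after TMM scaling, with Benjamini–Hochberg adjustment over 12857 genes. Standard errors came from the negative binomial model. Alternatives were the quasi-likelihood test with and without a replicate block, DESeq2 1.42.0, other filters, scalings and dispersions, and each library left out. Of the gene names, 6119 were blank and 8 of these were filled from the authors' table of differential genes, whose fold changes and FDR values were not used. The test was tried on simulated data first. Members and lists were chosen with earlier results of these data known. Named genes were all members, each pathway gene past an FDR of 0.05 or, in a list with none, the 2 with the largest change, and the 3 profiles closest to *SMAD7*; genes named outside this rule, the single marker genes and *CHRDL2* included, were chosen after their values were seen. The ATAC-Seq files were not used here. One gene that this rule selects is not reported here.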

Additional observations from a re-analysis of the deposited data

How the results depend on the processing

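The count of receptor, inhibitory SMAD and *ID* genes called was 0 under every alternative except one, and ran from 0 to 2 when libraries were left out singly. The 2 calls, *SMAD7* and *ID1*, came without DZC replicate 2, where the spread rests on the SZC pair by construction. With each library left out, log2 fold changes ranged from -0.35 to 0.64 for *BMPR2*, 0.50 to 1.32 for *SMAD7*, -0.88 to 0.66 for *ID1*, -0.49 to 0.56 for *ID2* and -0.31 to 0.20 for *ID3*. The same fits called 68 to 2768 of all genes, against 377 with 4 libraries, of which 62 to 1656 were higher in SZCs and 6 to 1112 higher in DZCs, and 1 to 20 pathway genes, against 9. Library totals alone turned *ID1* to 0.12, *ID2* to 0.33 and *ID3* to 0.27 and left 44 genes higher in DZCs. The median over all genes had itself moved by 0.30 in that fit. Relative to that median the 3 values were -0.14, 0.07 and 0.01. The quasi-likelihood test called 0 genes, 0 higher in SZCs and 0 higher in DZCs, and 0 pathway genes. Why it did so was not tested.

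The replicate numbers are not stated to mark a shared joint. Deviations of same-numbered libraries correlated at 0.42 across 12857 genes. A replicate block in the quasi-likelihood fit gave 347 calls, 277 of them shared with the 377, and 0 among the 9; under this pairing *ID2* turned to 0.0167, and *SMAD7* was at 0.89 (FDR 0.314). DESeq2 called 397 genes. In edgeR's exact test on all 4 libraries, the smallest absolute log2 fold change called for any gene was 1.07.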
